A study of Mus musculus with 24 samples.

Results

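The cytosolic ribosomal proteins are the proteins that, with the ribosomal RNAs, build the small and large subunits of the ribosome outside the mitochondria. Their genes were taken as every probe set with 1 annotated gene symbol of the form Rpl or Rps followed by a number, with an optional ending a, l, x or l1, together with Rplp0, Rplp1, Rplp2 and Rpsa, leaving out symbols marked as pseudogenes. The rule found 59 genes among 23281 probe sets with 1 symbol. RefSeq lists 86 mouse symbols of this form, of which 83 are protein-coding, and the other genes, Rps6, Rpl11 and Rplp2 among them, were not analysed here. RefSeq gives Rpl6l as a pseudogene and Rps4l as a transcribed pseudogene. Of the 59 genes, 53 passed the filter on low values and were tested among 14064 genes.

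The 24 arrays measured RNA of cells sorted from mouse tibialis anterior muscle on day 0, before injury, and on days 2, 4 and 8 after injury with cardiotoxin, a snake venom toxin that kills muscle fibres. Satellite cells, the muscle stem cells, were sorted as CD45-, Sca1-, CD31- cells that carried CD34 at a low or higher level and alpha7 integrin. Endothelial cells were sorted as CD45-, Sca1+, CD34+ and CD31+. Each of the 8 groups, given by cell type and day, had 3 arrays labelled as biological replicates, and the labels do not give the mice behind them, their strain or their age. The groups were taken from the sample titles, since the cell type field differs from the title for 12 samples and the time point field for 18. Values are log2 intensities, so a difference of 1 is a doubling, and a value belongs to its probe set and cannot be set against that of another gene.

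Protein synthesis needs nearly equal amounts of each ribosomal protein, and their mRNAs are among the most abundant of the cell. Many of these mRNAs begin with a C followed by a run of pyrimidines, the 5′ terminal oligopyrimidine tract, through which mTOR and the RNA-binding protein Larp1 adjust their translation. Satellite cells rest in uninjured muscle, and leaving that state is known to bring larger cells, more ribosomal RNA and more translation.

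The markers bear on what was sorted. Pax7, the transcription factor of satellite cells, averaged 9.28 ± 0.52, 5.17 ± 0.51, 8.46 ± 0.49 and 8.13 ± 0.73 in satellite cells of days 0, 2, 4 and 8, against 4.56 to 5.23 in the endothelial groups (SD, n = 3), and the cell types overlapped on day 2. Pecam1 (CD31) and Cdh5, which mark endothelial cells, had means of 7.71 to 10.07 in the satellite groups, against 11.39 to 11.90 in the endothelial groups. The mean of 19 leukocyte markers lay between 3.78 and 4.31 in satellite cells of day 0, between 8.88 and 10.50 on day 2, between 6.89 and 8.08 on day 4 and between 5.25 and 6.63 on day 8. In endothelial cells it was 4.09 to 4.16, 6.00 to 8.15, 6.08 to 8.09 and 4.84 to 5.81 on the same days. The mean of 9 pericyte and smooth muscle markers averaged 9.89, 7.25, 7.38 and 8.95 in satellite cells of days 0, 2, 4 and 8, against 7.33, 6.53, 6.48 and 6.56 in endothelial cells. That of 7 fibro-adipogenic markers averaged 7.86, 6.29, 7.47 and 8.15 in satellite cells, against 4.52, 4.31, 5.85 and 6.12 in endothelial cells. Both lists stood higher in the satellite arrays of day 0 than in the endothelial arrays. The arrays were numbered in the order of the days, so an effect of that order would look like an effect of the day. As the samples are bulk RNA, a change in the mix of cells and a change of RNA per cell cannot be told apart.

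The starts of the genes were read from RefSeq promoter windows (mouse build GRCm38.p6), which hold 57 annotated starts of 45 of the 59 genes. At 6 of the 57 starts (10.5%), those of Rpl14, Rpl15, Rpl32l, Rpl35a, Rps15a and Rps27, the first transcribed base was C and opened a run of at least 6 pyrimidines, against 558 of 32851 starts of all genes (1.70%). Rpl14 and Rpl15 are shown because they were higher in satellite than in endothelial cells late after injury, Rps15a and Rps27 because they have the tract and were not called, and Rps26 and Rps24 because they carry the clearest changes and have no such tract at these annotated starts. Each sequence gives 25 bases before the start and 15 from it, on the gene's strand. Capitals mark the tract, or the first transcribed base where there is none.
Rpl14, chr9:120571492-120571531, plus strand: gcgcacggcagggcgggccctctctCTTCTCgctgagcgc
Rpl15, chr14:18270972-18271011, minus strand: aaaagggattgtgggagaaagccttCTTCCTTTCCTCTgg
Rps15a, chr7:118116133-118116172, minus strand: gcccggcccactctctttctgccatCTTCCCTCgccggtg
Rps27, chr3:90213634-90213673, minus strand: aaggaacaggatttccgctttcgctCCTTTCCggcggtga
Rps26, chr10:128626492-128626531, minus strand: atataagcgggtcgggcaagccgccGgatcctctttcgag
Rps24, chr14:24490653-24490692, plus strand: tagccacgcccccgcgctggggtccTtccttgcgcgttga
Annotated starts are not measured ones, and when a start within 10 bases was allowed, 38.6% of the starts had a tract, against 19.2% of all starts. The sequences of Rps26 and Rps24 shown here have such a run beginning within 10 bases of the start. Both starts therefore count as having a tract under that wider rule.

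The same 300-base windows were searched on both strands for the letters CCGGAAG, a core that ETS family factors bind. They held it at 17 of 57 starts (29.8%), in 16 genes, against 8.86% of all 32851 windows. Sequences with the core in capitals are shown for Rps26, Rps27l and Rpl15, whose values are followed below.
Rps26, chr10:128626704-128626730, minus strand: taatcttccgCCGGAAGgttaaatagt
Rps27l, chr9:66946085-66946111, plus strand: cgcctctatcCCGGAAGttgctgaggg
Rpl15, chr14:18271032-18271058, minus strand: caatgccccaCCGGAAGgagggtcgcc
The letters ATGGCGG, bound by YY1, stood in 17.5% of the windows of ribosomal protein genes, 10 starts in 7 genes, against 4.05% of all windows. The E-box CACGTG, which Myc can bind, stood in 12.3%, 7 starts in 5 genes, against 7.15%. The TATA box letters TATAAA stood in 8.77%, 5 starts in 5 genes, against 13.6%. Windows of neighbouring starts of a gene can overlap, so a match can count more than once. A match is a description of these letters and not a site in use.

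The level of the genes as a set was highest in satellite cells of day 4 and lowest in endothelial cells of day 0. The mean over the 53 genes was 6.67 ± 0.12, 6.81 ± 0.18, 7.00 ± 0.06 and 6.88 ± 0.11 in satellite cells of days 0, 2, 4 and 8, and 6.35 ± 0.10, 6.83 ± 0.04, 6.64 ± 0.07 and 6.47 ± 0.09 in endothelial cells (SD, n = 3). The 3 arrays of day 2 endothelial cells, at 6.79 to 6.87, lay above the 3 of day 0, at 6.25 to 6.45. Satellite arrays of day 2, at 6.66 to 7.01, overlapped those of day 0, at 6.53 to 6.75.

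**Figure D1:**
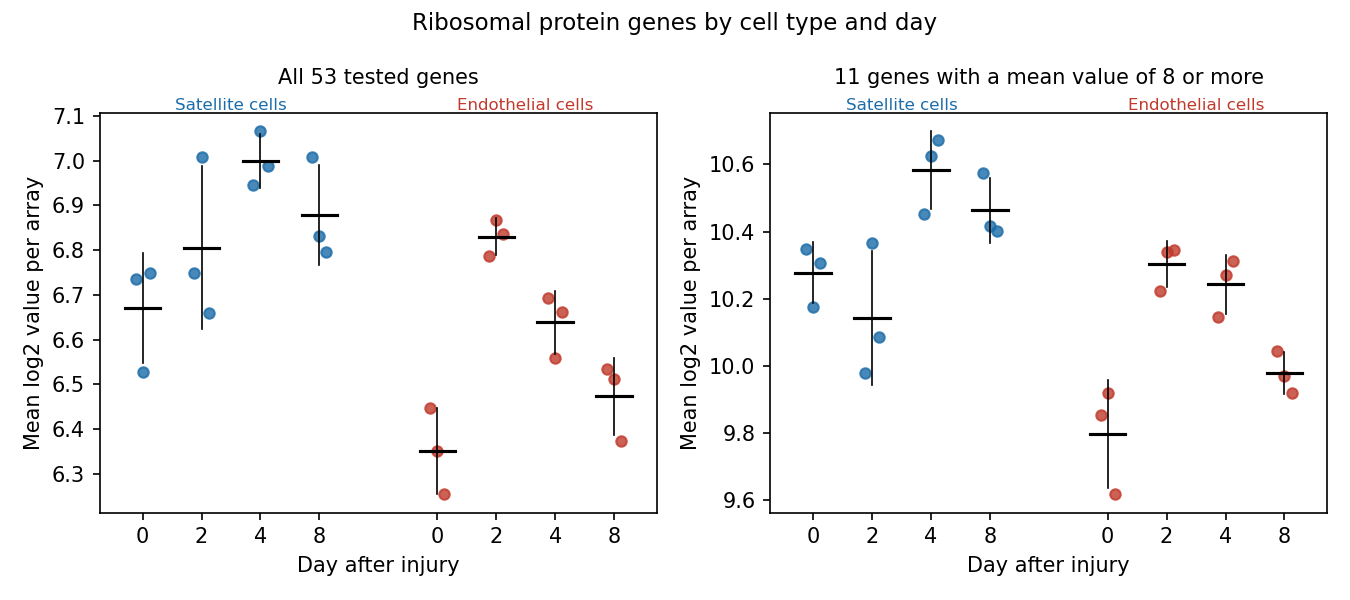
Mean log2 value per array of the 53 tested ribosomal protein genes (left) and of the 11 with a mean value of 8 or more (right), by cell type and day. Points are arrays, lines the mean and bars the SD of 3 arrays. Endothelial cells are lowest on day 0 and highest on day 2, and satellite cells are highest on day 4.

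Replicates did not agree equally well for all genes. In 11 genes the mean over the 24 arrays was 8 or more, a limit set after the values were seen: Rplp1, Rps21, Rpl22, Rps9, Rpl4, Rpl8, Rps20, Rpl15, Rps3, Rpl37a and Rpl6l. Their SD between replicate arrays had a median of 0.17 (0.13 to 0.37), against 0.51 (0.26 to 1.22) in the other 42. Over the 8 group means, their correlation with the mean of the other ribosomal protein genes had a median of 0.82, against 0.43 in the 42. The points share 1 normalization, so this is a description. Rpl6 had the widest replicate spread, an SD of 1.22, and Rpsa followed at 1.17.

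**Figure D2:**
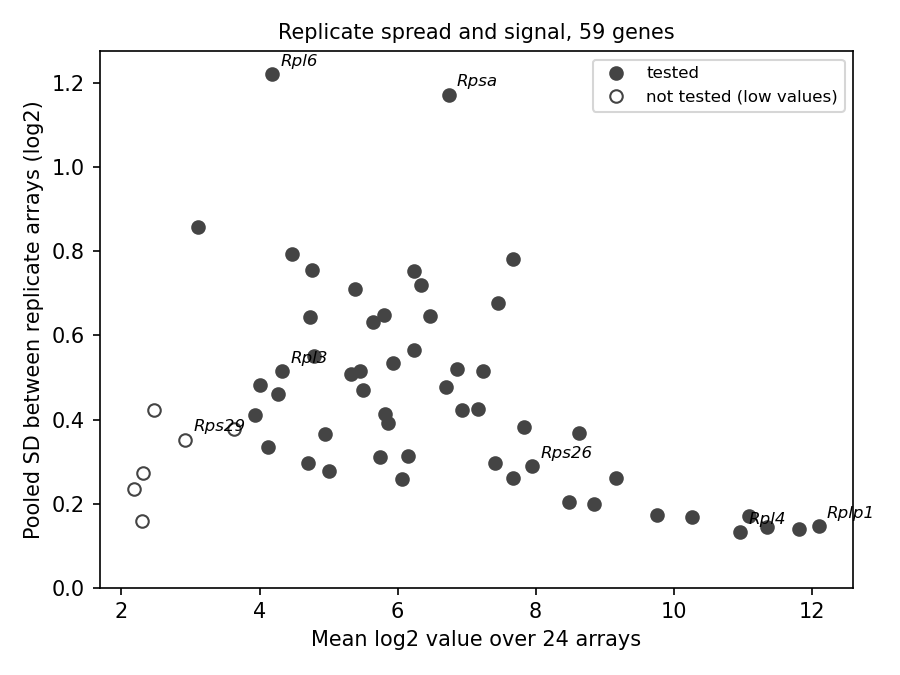
SD between replicate arrays, pooled over the 8 groups, against the mean log2 value over 24 arrays for the 59 genes. Open circles are the 6 genes that were not tested. The genes with a mean of 8 or more have SDs of 0.13 to 0.37, and Rpl6 and Rpsa have the widest spread.

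A low value here does not show a scarce transcript. Rpl3, a core protein of the large subunit near the peptidyl transferase centre, had a mean of 4.32 over the arrays, while the array medians were 4.12 to 4.40. Eef1a1, the elongation factor that brings aminoacyl-tRNA to the ribosome, had group means of only 3.05 to 4.74. Ribosomal protein genes have many processed pseudogenes with nearly the same sequence, and how the probe sets treat them is not given in the sources used here, so the values of single genes are uncertain in this respect.

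The 6 genes that were not tested were Rpl10, Rpl9, Rps29, Rpl10l, Rpl32l and Rpl24. Their means over the 24 arrays were 2.19 to 3.63, and they lay above the array median on 0 to 2 arrays. Rpl10l, the testis paralog of Rpl10, hardly moved, with group means that had an SD of 0.05, the smallest of the 59. Rpl32l followed at 0.14 and Rps21, a small-subunit protein, at 0.17. The group means of Rps24, at 1.06, Rpsa, at 0.99, and Rpl14, at 0.86, varied most.

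In endothelial cells of day 2, most ribosomal protein genes had higher values than on day 0. The log2 difference was above 0 for 46 of the 53 genes (86.8%), against 48.8% of all genes tested, with a median of 0.50 for the 53 and -0.01 for all genes. All 11 genes with a mean of 8 or more were above 0, by 0.26 to 0.70. Taken singly, 6 of the 53 rose (11.3%) and none fell, at an adjusted p under 0.05 from limma's moderated test, while 5.08% of all genes rose and 3.81% fell. The genes that rose were Rps24, Rps26, Rplp0, Rps27l, Rps20 and Rpl4.

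Rps26, a small-subunit protein at the channel where mRNA leaves the ribosome, had values of 8.00, 8.49 and 8.42 in day 2 endothelial cells, against 7.09, 6.79 and 6.64 on day 0. The groups did not overlap. The difference was 1.47 (SE 0.25), a 2.76-fold rise with an adjusted p of 0.000715 in limma. Rps24, a small-subunit protein needed to mature the small ribosomal RNA, had values of 8.19, 7.28 and 7.71, against 6.53, 5.07 and 6.38. Its lowest day 2 array was above its highest day 0 array, and it rose by 1.73 (SE 0.39, adjusted p = 0.00754, limma). Rps27l, a paralog of Rps27 that p53 is known to induce, had values of 8.62, 8.17 and 8.10, against 6.98, 7.35 and 7.02, without overlap. It rose by 1.18 (SE 0.23, adjusted p = 0.00254, limma).

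Rplp0, the base of the stalk that recruits the elongation factors, had values of 7.27, 7.13 and 6.69 in day 2 endothelial cells, against 6.67, 4.82 and 5.77 on day 0. Day 0 replicate 2 was far below the rest, and the groups were separated by only a narrow gap. The rise was 1.28 (SE 0.37, adjusted p = 0.0319, limma). Rpl4, which lines the exit tunnel of the large subunit, rose by 0.61 (SE 0.16, adjusted p = 0.0215), with values of 11.13, 11.04 and 11.06, against 10.44, 10.68 and 10.28. Rps20, a protein of the head of the small subunit, rose by 0.67 (SE 0.18, adjusted p = 0.0249). Rplp1, the other stalk protein measured, had values of 12.27, 12.31 and 12.19, against 11.98, 11.85 and 11.40, and its difference of 0.52 did not pass (adjusted p = 0.0633).
At the low end stood Rpl3l at -0.38, Rpl5 at -0.41 and Rps16 at -0.65, and none of these passed. Rpl34, a large-subunit protein, was among the 3 largest differences at 1.32 without passing (SE 0.56, adjusted p = 0.159). The calls of Rps26 and Rps27l held in all 34 alternative settings, 24 of which each left out 1 array. That of Rps24 was lost in 1 and those of Rplp0, Rpl4 and Rps20 in 5 or 6. The count of 6 fell to 3 without endothelial day 0 replicate 2 or 3, or without day 2 replicate 2.

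**Figure D3:**
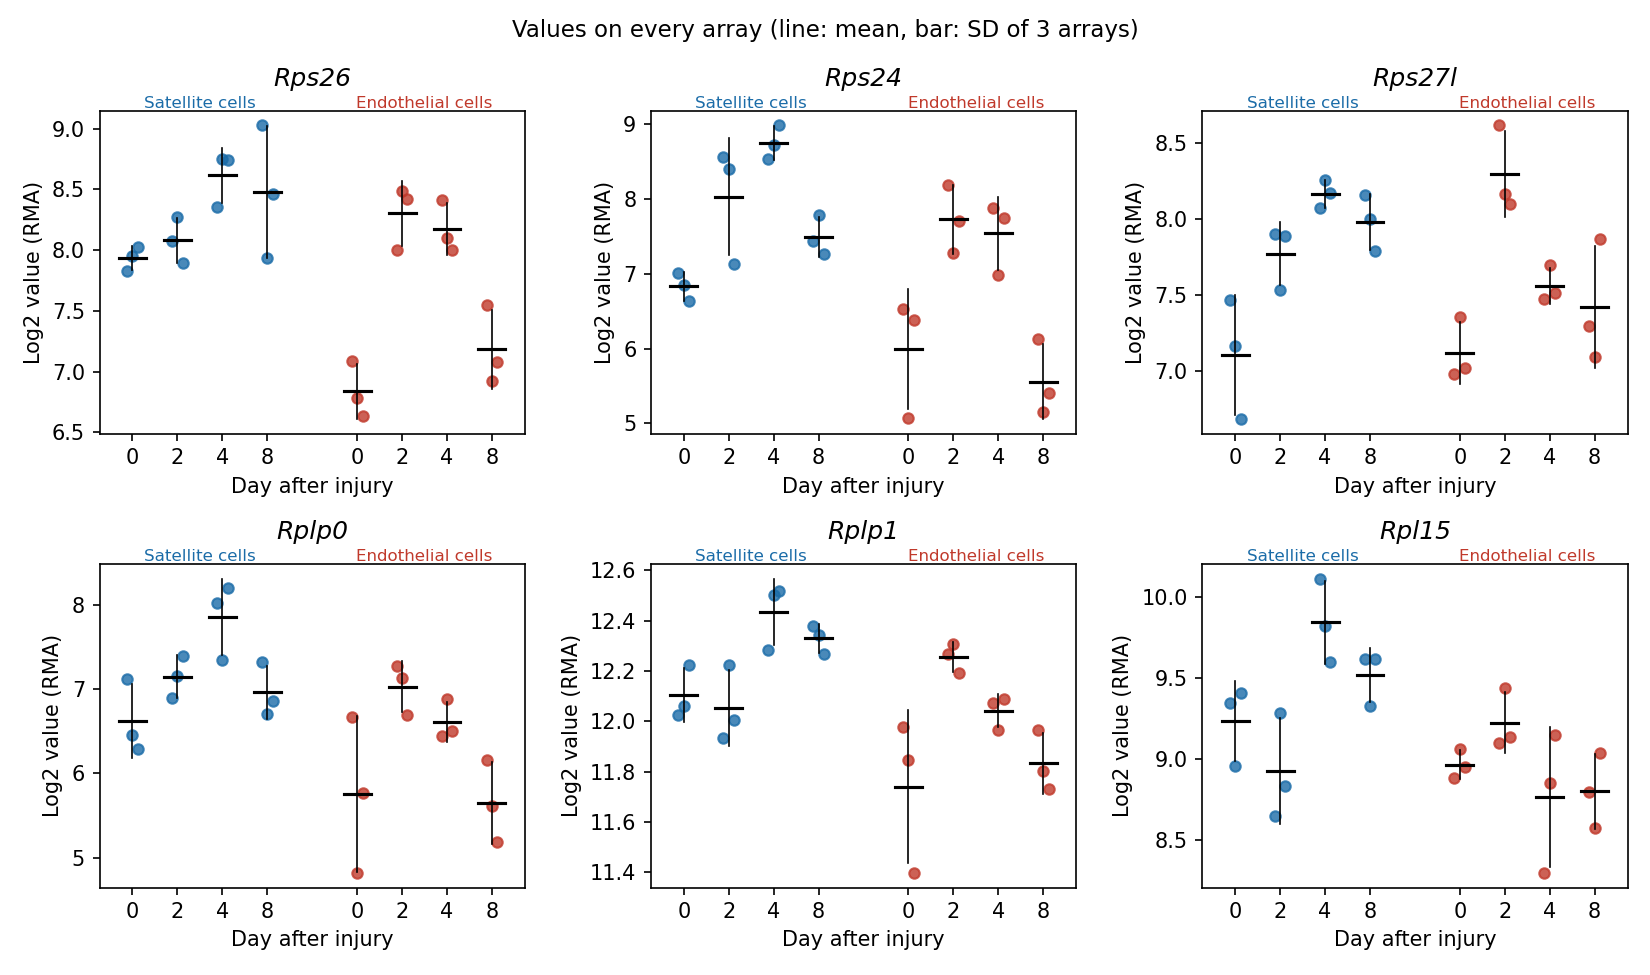
Log2 value on every array for Rps26, Rps24, Rps27l, Rplp0, Rplp1 and Rpl15, by cell type and day. Points are arrays, lines the mean and bars the SD of 3 arrays. Rps26 in endothelial cells stands at 8.00 to 8.49 on day 2 and 6.64 to 7.09 on day 0, and Rps24 peaks on day 4 in satellite cells.

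On day 4, 40 of the 53 genes (75.5%) had values above day 0 in endothelial cells, against 48.2% of all genes, with medians of 0.29 and -0.02. Rps24, Rps26, Rps20, Rpl6l and Rps9 rose, 9.43% of the 53, and none fell, while 3.75% of all genes rose and 2.75% fell. Rps26 had values of 8.41, 8.10 and 8.00 on day 4 and was higher than on day 0 by 1.33 (SE 0.25, adjusted p = 0.00171, limma). Rps24 had values of 7.88, 6.98 and 7.75 and was higher by 1.54 (SE 0.39, adjusted p = 0.0189). Rpl6l had values of 8.63, 9.03 and 8.65, against 7.79, 7.96 and 7.93 on day 0, a rise of 0.88 (SE 0.20, adjusted p = 0.00773). This is a pseudogene in RefSeq, so its probe set may read another copy. Rps20 rose by 0.81 (SE 0.18, adjusted p = 0.00773). Rps9, a small-subunit protein, rose by 0.62 (SE 0.18, adjusted p = 0.0455), a call lost in 20 of 34 settings. Rpl30, with a difference of 1.03, was among the 3 largest and did not pass (SE 0.32, adjusted p = 0.06), and Rpl3l (-0.38), Rpl6 (-1.11) and Rps16 (-1.54) were the 3 smallest. The count of 5 was 3 without endothelial day 0 replicate 2 or 3, or without day 4 replicate 2 or 3.

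On day 8 none of the 53 genes was called in endothelial cells in either direction by limma, with 4 at an unadjusted p under 0.05. Over all genes 1.23% rose and 1.02% fell. Values were above day 0 for 33 of the 53 (62.3%), against 49.7% of all genes, with medians of 0.17 and -0.00. Rps24 had values of 6.12, 5.15 and 5.40, and Rps26 of 7.55, 6.92 and 7.08, and both overlapped their day 0 arrays. The 3 largest differences were those of Rpl7 (1.01), Rpl37 (0.99) and Rps7 (0.97), and the 3 smallest those of Rpsa (-0.48), Rps16 and Rpl29 (-1.16). Rpl37, here and in the comparisons below, has low values, with a mean of 3.11 over the 24 arrays. It lay above the array median on only 3 arrays, and its replicate SD was 0.86. The 3 endothelial comparisons share the day 0 arrays.
Leukocyte markers also rose in endothelial cells, 11 of 19 on day 2, 14 on day 4 and 3 on day 8. Cell cycle genes did too, 9 of 11, 8 and 6. Of 7 fibro-adipogenic markers 0, 2 and 3 rose, and of 9 pericyte and smooth muscle markers 1 rose on each day and 2, 3 and 2 fell. Their part in the ribosomal protein values was not tested.

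In satellite cells of day 2 the genes went in both directions. The difference from day 0 was above 0 for 28 of the 53 genes (52.8%), against 48.2% of all genes, with medians of 0.06 and -0.03. Rps15, Rpl34, Rps19, Rps24, Rps13, Rps14 and Rps27l rose (13.2%) and Rps16 fell (1.89%), while 14.7% of all genes rose and 13.5% fell. Both shares of the ribosomal protein genes were below those of all genes. Of the 11 genes with a mean of 8 or more, 1 was above 0, none was called, and the differences ran from -0.36 to 0.12.

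Rps19, the small-subunit protein most often mutated in Diamond-Blackfan anaemia in humans, had values of 6.95, 8.30 and 7.69 in satellite cells of day 2, against 6.12, 6.40 and 5.85 on day 0. The groups did not overlap, and the rise was 1.52 (SE 0.33, adjusted p = 0.00143, limma), or 2.87-fold. It held in all 34 alternative settings. Rps14, a small-subunit protein at the platform, had values of 5.11, 5.13 and 5.48, against 4.97, 3.49 and 3.99, and rose by 1.09 (SE 0.29, adjusted p = 0.00773). Its day 0 values in replicates 2 and 3 lie under the array medians of 4.31 and 4.33. The Rps14 comparisons of days 4 and 8 use the same day 0 values.
Rps15, whose tail reaches the decoding site, had values of 4.53, 5.80 and 6.01, against 4.56, 2.66 and 4.00. The groups overlapped through day 2 replicate 1, and the rise of 1.71 had an SE of 0.56 (adjusted p = 0.0254). The Rps15 values of day 0 replicates 2 and 3 also lie under the medians of their arrays. Rps16, a protein of the head of the small subunit, had values of 4.62, 4.47 and 2.79, against 5.35, 5.21 and 6.19. It fell by 1.62 (SE 0.59, adjusted p = 0.0426), was the only gene of the 53 called lower in any comparison with day 0, and its call was lost in 7 settings.
Rpl34 rose by 1.56 (adjusted p = 0.0405), Rps13 by 1.17 (0.0349), Rps24 by 1.20 (0.026) and Rps27l by 0.67 (0.0328), the p-values being limma's adjusted ones, and each of these calls was lost in 6 settings. Rps25 (-0.97) and Rpl37 (-1.04) stood with Rps16 at the low end without passing. Without satellite day 0 replicate 2, the array with the lowest Rps14 and Rps15 values, 2 genes were called instead of 8. With the arrays centred on their medians, 7 rose and none fell.

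These arrays are the ones with the highest leukocyte markers. All 19 leukocyte markers rose on day 2, with a median difference of 5.76, and 8 of 10 satellite and myogenic markers fell, with a median of -2.37. Tyrobp, a signalling adaptor of myeloid cells, averaged 11.11 ± 0.47 in day 2 satellite arrays, against 4.02 ± 0.87 on day 0 (SD, n = 3). Of 9 pericyte and smooth muscle markers 8 fell, with a median of -2.70, and of 7 fibro-adipogenic markers 4 fell. Of 14 endothelial markers 9 rose, and all 11 cell cycle genes rose, with a median of 2.34. The part of these genes and cells in the ribosomal protein values was not tested.

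On day 4, 40 of the 53 genes (75.5%) were above day 0 in satellite cells, against 51.1% of all genes, with medians of 0.25 and 0.01. Rps24, Rps14, Rplp0, Rps27l and Rps20 rose, 9.43%, a share close to the 9.34% of all genes that rose, and none fell, against 7.29%. Rps24 had values of 8.53, 8.72 and 8.98 on day 4, against 7.01, 6.85 and 6.63 on day 0. The groups were far apart, and the rise of 1.91 (SE 0.39, adjusted p = 0.00157, limma), or 3.77-fold, held in all 34 alternative settings. Rps27l had values of 8.07, 8.26 and 8.18, against 7.46, 7.16 and 6.68, and its rise of 1.07 (SE 0.23, adjusted p = 0.00243) also held in all of them.
Rplp0 had values of 8.03, 7.34 and 8.20, against 7.12, 6.45 and 6.29, without overlap, and rose by 1.24 (SE 0.37, adjusted p = 0.0232). Rps14 rose by 1.30 (adjusted p = 0.00345) and Rps20 by 0.54 (adjusted p = 0.0458, lost in 22 of 34 settings). Rpsa, the small-subunit protein also described as a laminin receptor, had the largest difference of all, 2.44. Its values of 8.61, 8.37 and 9.12 lay above the 5.54, 6.93 and 6.30 of day 0, and with a wide spread it missed the threshold (SE 0.85, adjusted p = 0.0541). Rpl3 (-0.60), Rpl37 (-0.74) and Rps16 (-1.10) were the 3 smallest. The count of 5 was 3 without satellite day 0 replicate 2 or 3, or without day 4 replicate 3.
Markers moved on day 4 as well. All 11 cell cycle genes rose, with a median of 3.08, 16 of 19 leukocyte markers rose, with a median of 3.22, and 5 of 14 endothelial markers rose. Of 9 pericyte and smooth muscle markers 7 fell, with a median of -2.34. Of 10 satellite and myogenic markers 3 rose and 1 fell, and of 7 fibro-adipogenic markers 3 rose and 2 fell. Their part was not tested.

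On day 8, 34 of the 53 genes (64.2%) were above day 0 in satellite cells, against 49.5% of all genes, with medians of 0.18 and -0.01. Rps27l and Rps14 rose, 3.77% of the 53 against 5.87% of all genes, and none fell, against 2.9%. Rps27l had values of 8.16, 8.00 and 7.79 and was higher than on day 0 by 0.88 (SE 0.23, adjusted p = 0.0176, limma). Rps14 was higher by 0.96 with overlapping groups (adjusted p = 0.0458), a call lost in 21 of 34 settings. No gene was called without satellite day 0 replicate 3 or without day 8 replicate 2.
Rpsa (1.47), Rpl14 (1.41) and Rpl3l (1.02) had the largest differences and did not pass, while Rpl41 (-0.47), Rps16 (-0.61) and Rps23 (-0.63) had the smallest. Rpl3l, the paralog of Rpl3 that is restricted to heart and skeletal muscle, had values of 3.66, 5.71 and 5.75 on day 8, against 4.27, 3.89 and 3.89 on day 0 (adjusted p = 0.0946). Day 8 replicates 2 and 3 had the highest values of the 24 arrays, and replicate 1 was below day 0. All 11 cell cycle genes, 11 of 19 leukocyte markers and 7 of 14 endothelial markers rose on day 8. Of 9 pericyte and smooth muscle markers 2 fell, and of 7 fibro-adipogenic markers 3 rose and 2 fell. Of 10 satellite and myogenic markers, Myog among them, 2 rose and none fell, with a median of 0.13. Their part was not tested. Myog, the transcription factor that starts muscle differentiation, averaged 10.42 ± 0.09 on day 8, against 5.45 ± 0.28 on day 0 (SD, n = 3).

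Over the 3 later days together, limma's F-test called 7 of the 53 genes in satellite cells (13.2%), against 31.9% of all genes. These were Rpl15, Rpl37a, Rps14, Rps19, Rps20, Rps24 and Rps27l. In endothelial cells it also called 7 (13.2%), against 8.34% of all genes, namely Rpl6l, Rplp0, Rps20, Rps24, Rps26, Rps27l and Rps3. Rps20, Rps24 and Rps27l were called in both. The satellite count was 4 without satellite day 2 replicate 1 or 3, and the endothelial count was 3 without endothelial day 0 replicate 3 or day 2 replicate 1.

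**Figure D4:**
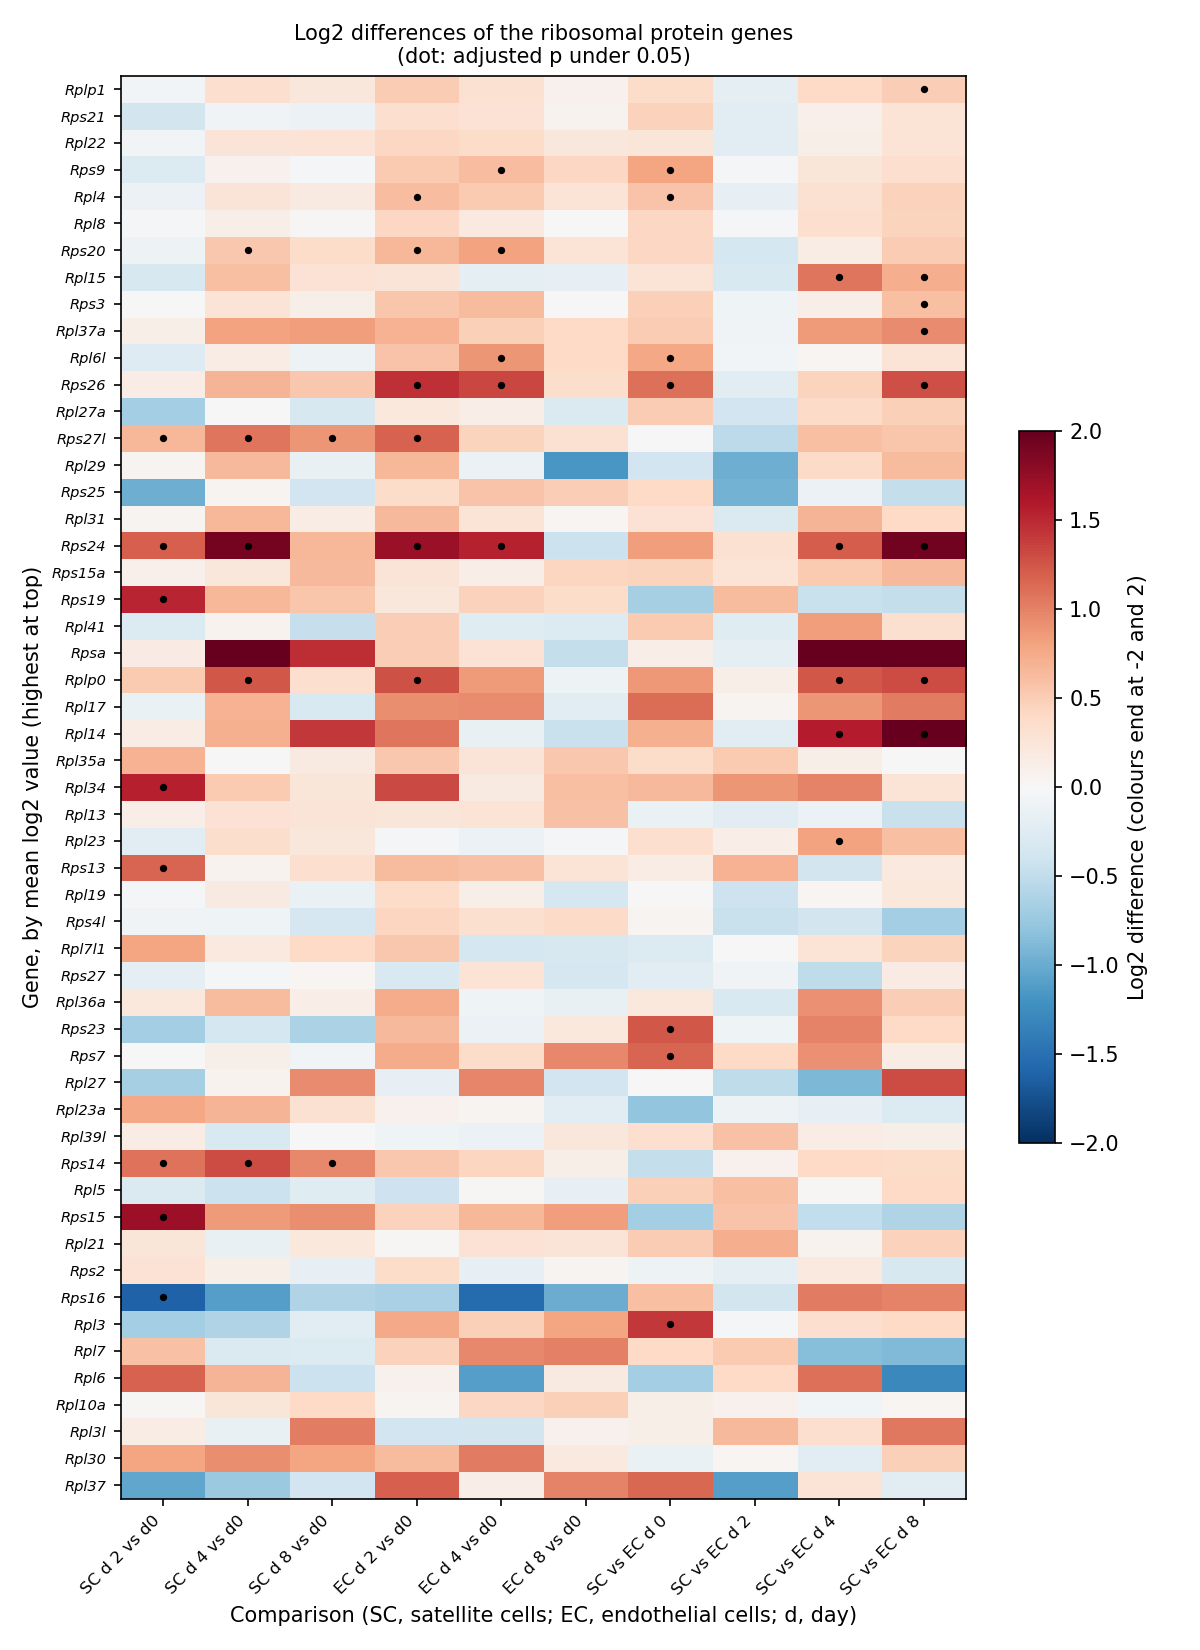
Log2 differences of the 53 tested genes in 6 comparisons of a later day with day 0 and in 4 of satellite with endothelial cells on 1 day, with genes ordered by their mean log2 value. Red is higher in the later day or in satellite cells, colours end at -2 and 2, and dots mark an adjusted p under 0.05. The endothelial day 2 column is mostly red, and the satellite against endothelial day 2 column has no dot.

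Satellite cells were compared with endothelial cells on each day. On day 0, 39 of the 53 genes (73.6%) were higher in satellite cells, against 49.4% of all genes, with medians of 0.36 and -0.01. Passing the test were 7 genes (13.2%), all higher in satellite cells, while 10% of all genes were higher and 12.5% lower. All 11 genes with a mean of 8 or more were above 0. Rps26 had values of 7.82, 7.95 and 8.02 in satellite cells, against 7.09, 6.79 and 6.64 in endothelial cells, and was higher by 1.09 (SE 0.25, adjusted p = 0.00219, limma). Rps9 had values of 11.54, 11.18 and 11.23, against 10.64, 10.69 and 10.27, and was higher by 0.78 (SE 0.18, adjusted p = 0.00283). Neither gene overlapped between the cell types, and both calls held in all 34 settings.
Rpl3 was higher by 1.41 (adjusted p = 0.0113), with values of 4.85, 4.68 and 5.36, against 3.84, 3.23 and 3.59, and the endothelial values lie under the array medians. Rpl6l was higher by 0.77 (0.00652), Rpl4 by 0.57 (0.0145), Rps7 by 1.16 (0.0369) and Rps23, with overlapping groups, by 1.25 (0.0156), each with limma's adjusted p. The 3 smallest differences were those of Rps15 (-0.69), Rpl6 (-0.69) and Rpl23a (-0.78). The scaling matters here: centring the arrays on the median moved the median of all genes to -0.17, and on the 75th percentile to 0.11. Centring shifts all genes of an array alike, so it cannot change the gap of 0.37 between the ribosomal protein genes and all genes. That gap is therefore no check of the scaling. Under the centrings, 5 and 11 of the ribosomal protein genes were called. The count was 4 without endothelial day 0 replicate 2 or 3 or satellite day 0 replicate 3. Satellite cells were higher in 7 of the 9 pericyte and smooth muscle genes, with a median of 2.35, and in 6 of the 7 fibro-adipogenic markers, with a median of 3.68. Their part was not tested.

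On day 2 none of the 53 genes was called by limma in either direction, with 2 at an unadjusted p under 0.05, while 6.73% of all genes were higher in satellite cells and 8.16% lower. Values were higher in satellite cells for 20 of the 53 (37.7%), against 45.5% of all genes, with medians of -0.07 and -0.05, and the median of the 53 was 0.01 with the arrays centred on the 75th percentile. Rps26 had values of 8.07, 8.27 and 7.89 in satellite cells, against 8.00, 8.49 and 8.42 in endothelial cells. Of the leukocyte markers 18 of 19 were higher in satellite cells on this day, with a median of 2.86. Rpl34 (0.89), Rpl21 (0.72) and Rps13 (0.69) had the largest differences and Rps25 (-0.94), Rpl29 (-0.98) and Rpl37 (-1.09) the smallest.

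On day 4, 41 of the 53 genes (77.4%) were higher in satellite cells, against 51.3% of all genes, with medians of 0.30 and 0.02. Rpl14, Rplp0, Rps24, Rpl15 and Rpl23 were called higher (9.43%) and none lower, against 7.34% and 9.81% of all genes. Rpl15, a large-subunit protein, had values of 10.11, 9.82 and 9.60 in satellite cells, against 8.30, 8.86 and 9.15 in endothelial cells. The groups did not overlap, and the difference of 1.08 (SE 0.23, adjusted p = 0.00187, limma) held in all 34 settings. Rpl23, a large-subunit protein, was higher by 0.80 (SE 0.23, adjusted p = 0.017). Rplp0 was higher by 1.24 (adjusted p = 0.0215), Rps24 by 1.21 (0.0373) and Rpl14 by 1.57 (0.0461), each with limma's adjusted p. The call of Rpl14 was lost in 17 of the 34 settings, among them a replicate block, and that of Rps24 in 7. Rpsa had the largest difference, 2.29, and did not pass (adjusted p = 0.0717), and Rps27 (-0.51), Rpl7 (-0.86) and Rpl27 (-0.91) had the smallest. Without satellite day 4 replicate 3, 1 gene was called.

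On day 8, 42 of the 53 genes (79.2%) were higher in satellite cells, against 47.3% of all genes, with medians of 0.40 and -0.03. Called higher were 8 genes (15.1%) and none lower, against 9.41% and 9.3% of all genes. Rpl14, a large-subunit protein, had values of 7.90, 7.77 and 7.63 in satellite cells, against 5.98, 6.17 and 3.45 in endothelial cells. Endothelial replicate 3 was far below the other arrays, and the groups did not overlap. The difference was 2.57 (SE 0.53, adjusted p = 0.0014, limma), or 5.92-fold. Rps24 had values of 7.44, 7.79 and 7.26, against 6.12, 5.15 and 5.40, and was higher by 1.94 (SE 0.39, adjusted p = 0.00112). Rps26 had values of 9.03, 7.94 and 8.46, against 7.55, 6.92 and 7.08, and was higher by 1.29 (SE 0.25, adjusted p = 0.000643). These calls of Rpl14, Rps24 and Rps26 held in all 34 settings.
Both stalk proteins were higher, Rplp0 by 1.31 (adjusted p = 0.014) and Rplp1 by 0.50 (adjusted p = 0.0454), the second lost in 22 of 34 settings. Rplp1 had values of 12.38, 12.34 and 12.27 in satellite cells, against 11.97, 11.80 and 11.73 in endothelial cells. Rpl37a (0.94), Rpl15 (0.72) and Rps3 (0.61), the last a protein of the channel where mRNA enters, were also called. Rps4l (-0.67), Rpl7 (-0.88) and Rpl6 (-1.29) had the smallest differences. Without satellite day 8 replicate 3, 4 genes were called. On day 8 satellite cells were higher in 8 of the 9 pericyte and smooth muscle genes and in 5 of the 7 fibro-adipogenic markers. On day 4 they were higher in 3 of the 9 and lower in 1, and higher in 4 of the 7. Their part was not tested.

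Whether the response to injury differed by cell type was tested as an interaction, the satellite change minus the endothelial change. On day 2, the satellite response was above the endothelial one for only 16 of the 53 genes (30.2%), against 48.1% of all genes, with medians of -0.51 and -0.03, and all 11 genes with a mean of 8 or more were below 0, at -0.82 to -0.46. Rps26, Rps9 and Rpl4 were called (5.66% lower, none higher), while 6.67% of all genes were called higher and 5.2% lower. Rps26 differed from day 0 by 0.15 in satellite cells and by 1.47 in endothelial cells, and the difference of these, -1.32 (SE 0.35, adjusted p = 0.0168, limma), held in all 34 settings. Rps9 differed by -0.27 and 0.53 (interaction -0.80, adjusted p = 0.0467) and Rpl4 by -0.12 and 0.61 (interaction -0.73, adjusted p = 0.0435), and both of these calls were lost in 21 of the 34.
In this contrast 12 of 19 leukocyte markers and 6 of 14 endothelial markers were higher in the satellite response, and none of either list was lower. Lower were 5 of 10 satellite and myogenic markers, 4 of 9 pericyte and smooth muscle markers and 3 of 7 fibro-adipogenic markers. Their part was not tested. With 12 of the arrays left out singly, only 1 ribosomal protein gene was called, and without satellite day 2 replicate 2 it was 7. On day 4 no gene was called by limma, 5 having an unadjusted p under 0.05, while 2.02% of all genes were called higher and 2.25% lower. On day 8 none was called either, with 2 at an unadjusted p under 0.05, against 1.4% of all genes higher and 0.818% lower.

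The paralogs are set beside their parents, a parent being the gene named by the symbol without its ending. No paralog was tested against its parent. Rps27l was called in 4 of the 10 comparisons, while Rps27 was called in none, with differences from -0.51 to 0.27. Rpl3l differed from day 0 by 1.02 in satellite cells of day 8, and Rpl3 by -0.22, and neither was called. Rpl7l1, a paralog of Rpl7 with a role in making the large subunit, was not called, and its difference was largest in satellite cells of day 2, at 0.79 (SE 0.48). Rpl39l, a paralog mainly known from testis, had differences from -0.31 to 0.58, and Rps4l from -0.67 to 0.43, none of them called. The parents of Rpl39l and Rps4l are not among the 59 genes. Rpl6l was called in 2 comparisons and Rpl6 in none, with Rpl6 having the widest spread of the genes. Rpl5, which with Rpl11 and 5S RNA holds Mdm2 when ribosome assembly fails, was not called in any comparison, with differences from -0.43 to 0.60.

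Some genes followed the mean of the others closely over the 8 groups. The correlation was highest for Rplp1 (0.96), Rplp0 (0.95), Rps26 (0.95), Rpl8 (0.94) and Rpl4 (0.93), and lowest for Rps27 (-0.35) and Rps4l (-0.35). These correlations are over 8 group means that share arrays and are given without a test.

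Other genes of translation were read from lists. Of 14 tested elongation factors and other mRNAs with a known 5′ pyrimidine tract, 3 rose and none fell in satellite cells on each of days 2, 4 and 8, and in endothelial cells 4, 4 and 0 rose and none fell. Of all genes tested, 14.7%, 9.34% and 5.87% rose in satellite cells on these days, and 5.08%, 3.75% and 1.23% in endothelial cells. Pabpc1, the poly(A)-binding protein, rose in satellite cells by 0.64, 1.04 and 0.58 on the 3 days and in endothelial cells by 0.86 on day 2 and 0.83 on day 4. Nap1l1, a histone chaperone, rose by 0.77, 1.20 and 0.84 in satellite cells and by 1.19 and 0.94 in endothelial cells. Eef1b2, which recharges the elongation factor with GTP, had a difference of -0.11 in satellite cells of day 2 and rose by 0.69 (SE 0.18) in endothelial cells, with an interaction of -0.80 (adjusted p = 0.044, limma). Of the 14, 1 was called lower in this interaction and 0 higher, against 5.2% and 6.67% of all genes. Eef2, the translocase, was not called on any day.
A separate list held ribosomal protein genes outside the symbol rule, of which 3 were tested. Rpl36al, an intronless copy of Rpl36a, rose in satellite cells by 0.98 on day 2 and 0.74 on day 4 and in endothelial cells by 1.18 on day 2, while Rpl36a was not called. Fau, which encodes a small-subunit protein fused to a ubiquitin-like one, and Rps3a1 were not called in those comparisons.

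Factors that assemble ribosomes were called higher most often on day 2. Of 44 tested, 11 rose in satellite cells of day 2, with a median of 0.48, and 19 in endothelial cells, with a median of 0.87, and none fell. Over all genes, 14.7% rose and 13.5% fell in satellite cells of day 2, and 5.08% rose and 3.81% fell in endothelial cells. On day 4, 2 rose and 1 fell in satellite cells and 1 rose in endothelial cells, and on day 8 1 rose in satellite cells and 0 in endothelial cells. The share of all genes that rose was also largest on day 2. On days 4 and 8 it was 9.34% and 5.87% in satellite cells and 3.75% and 1.23% in endothelial cells. Nop58, a core protein of the particles that methylate ribosomal RNA, had a difference of 0.07 in satellite cells of day 2 and rose by 1.64 (SE 0.24) in endothelial cells, with an interaction of -1.57 (adjusted p = 0.004, limma). Of the 44 factors, 2 were called lower in this interaction and 0 higher, against 5.2% and 6.67% of all genes. In the comparison of the cell types, 8, 0, 4 and 15 of the 44 were higher in satellite cells on days 0, 2, 4 and 8, against 10%, 6.73%, 7.34% and 9.41% of all genes, and none was lower. Of 23 initiation factors, 2, 5 and 0 rose and 2, 2 and 1 fell in satellite cells on days 2, 4 and 8, and 6, 2 and 0 rose and none fell in endothelial cells. The 2 that rose in satellite cells of day 2 are a smaller share than the 14.7% of all genes, and the 6 in endothelial cells of day 2 a larger one than 5.08%.
Myc, the transcription factor that drives ribosome production, averaged 8.73 ± 0.25, 8.37 ± 0.46, 9.17 ± 0.42 and 9.07 ± 0.53 in satellite cells of days 0, 2, 4 and 8 (SD, n = 3). In endothelial cells it averaged 5.26 ± 0.46, 9.03 ± 0.16, 8.70 ± 0.19 and 7.60 ± 0.39. It was not called on any later day in satellite cells, rose by 3.76 (SE 0.30, adjusted p = 1.59e-07, limma) in endothelial cells of day 2, and the interaction on day 2 was -4.12 (SE 0.43). On day 0 it was higher in satellite than in endothelial cells by 3.47. Larp1 rose on day 2 by 0.79 in satellite cells and by 0.83 in endothelial cells, and Mtor was not called in a comparison with day 0. These genes belong to a list of the mTOR pathway, Larp1 and Myc, of which 19 were tested. On day 2, 1 of the 19 rose and 2 fell in satellite cells, against 14.7% and 13.5% of all genes. In endothelial cells of day 2, 2 rose and 1 fell, against 5.08% and 3.81% of all genes.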

How the data were processed

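RNA of sorted cells, amplified from 750 pg, was hybridised to 24 single-colour arrays, 3 for each of 8 groups. The values are log2 intensities that the authors normalized with RMA, per the submitters' processing notes, and deposited as 1 table. The version, the background setting and the genome build are not given in the sources used here. The values run from 1.29 to 12.9, and the number of arrays limits their precision.

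Gene symbols came from the platform annotation, in which 23281 of 24479 probe sets have 1 symbol and 1198 have none. A gene was tested if its value lay above the array median on at least 3 arrays, and of several probe sets of a symbol the brightest was used. The fit, in limma 3.58.1 under R 4.3.3, took in all arrays and gave each group its mean, with 16 residual degrees of freedom. The tests were limma's moderated ones, two-sided, in 13 comparisons, adjusted by Benjamini-Hochberg over all 14064 genes, and called at an adjusted p under 0.05. Scripts were tested on simulated data. p-values measure the spread between these arrays.

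The members and gene lists were chosen with earlier results of these data known. Named genes were, per comparison, the 3 largest and 3 smallest differences, paralogs and their parents, the stalk genes, Rpsa, Rpl5, Rpl3, the untested genes, those that varied most and least over groups, and a short list of translation and marker genes. Rps20, Rpl4, Rps9, Rpl15, Rpl37a, Rps3, Rpl23, Rpl8, Rpl22, Rps15a, Tyrobp, Myog, Pabpc1, Nap1l1, Eef1b2, Nop58, Rpl36al and Rps3a1 were named after their values were seen. So were the promoter motifs chosen.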

Additional observations from a re-analysis of the deposited data

Results flagged for a closer look

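In 3 ribosomal protein genes the response of day 2 differed between the cell types by limma's interaction test. The satellite change minus the endothelial change was -1.32 for Rps26, -0.80 for Rps9 and -0.73 for Rpl4. The 3 are 5.66% of the 53, close to the 5.2% of all genes called lower in this contrast, and the calls of Rps9 and Rpl4 were each lost in 21 of 34 settings, among them the replicate block. Rps26 averaged 8.08 on day 2 and 7.93 on day 0 in satellite cells, and 8.30 on day 2 and 6.84 on day 0 in endothelial cells.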

How the results depend on the processing

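No call of a ribosomal protein gene changed direction in the 34 alternatives, and 13 of the 49 calls held in all of them, 14 when each array was left out. The limits are the 3 arrays per group and the wide replicate spread of genes with low values. Same-numbered arrays of the cell types on a day were checked for pairing: 4 of 12 pairs had a correlation over 0.1 (-0.06 to 0.20), which is short of the rule for pairing. In 11 of the 12 pairs the array names also share a number, and the labels do not say whether it marks shared mice or a shared sort. With the replicate block on title numbers, 1 gene in place of 3 was called in the day 2 interaction, Rps9 and Rpl4 being lost. The other counts stayed within 1.5 times, though single calls were lost, such as Rpl14 in satellite against endothelial cells of day 4, Rplp1 of day 8 and Rps14 in satellite cells of day 8. With the number in the array names and the day as a random block, none of the 49 calls was lost. The causes of the following changes were not tested. For the alternative settings, the leaving out of arrays included, the share of all genes called was not recorded. The counts under them cannot be set against such a share. Without the filter on low values, with all 59 genes tested, 5 in satellite cells of day 2, 1 of day 8, 3 in satellite against endothelial cells of day 4 and 5 in the day 2 interaction were called. With arrays centred on the median there were 3 in satellite against endothelial cells of day 4 and 1 in the day 2 interaction. With centring on the 75th percentile there were 1 in satellite cells of day 8, 11 in satellite against endothelial cells of day 0, and 4 in the endothelial F-test. With an intensity trend there were 10 in endothelial cells of day 2 and 7 in the day 2 interaction. With array weights there were 10 in endothelial cells of day 2, 8 of day 4, 11 in satellite against endothelial cells of day 4, 7 in the day 2 interaction and 1 in that of day 4. With the groups compared fitted alone there were 3 and 1 in satellite cells of days 2 and 8, 3 and 2 in endothelial cells of days 2 and 4, 3 and 8 in satellite against endothelial cells of days 0 and 4, and 1 in the day 2 interaction. Requiring a difference of at least 1 as well gave 0 in satellite cells of day 8, 2 in endothelial cells of day 4, 4 and 4 in satellite against endothelial cells of days 0 and 8, and 1 in the day 2 interaction. The tract share was 38.6% within 10 bases of the start.

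Leaving out each array gave 2 to 9, 3 to 7 and 0 to 2 called genes in satellite cells of days 2, 4 and 8, and 3 to 6 and 3 to 7 in endothelial cells of days 2 and 4. In satellite against endothelial cells it gave 4 to 8, 1 to 8 and 4 to 10 on days 0, 4 and 8. The interactions gave 1 to 7, 0 to 1 and 0 to 1 on days 2, 4 and 8, with the day 2 median from -0.67 to -0.39. The F-tests gave 4 to 9 in satellite cells and 3 to 8 in endothelial cells.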

Other observations

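The ribosomes of mitochondria are built from other proteins, encoded by the Mrpl and Mrps genes, a list added after the data were seen. Of 75 tested, 8, 17 and 6 rose and 1, 1 and 0 fell in satellite cells of days 2, 4 and 8, and 12, 2 and 0 rose and none fell in endothelial cells. Of all genes, 14.7%, 9.34% and 5.87% rose in satellite cells on these days, and 5.08%, 3.75% and 1.23% in endothelial cells, so the share of the 75 that rose in satellite cells of day 2 was below that of all genes. The median difference was 0.42, 0.46 and 0.42 in satellite cells and 0.50, 0.24 and 0.07 in endothelial cells, while the medians of all genes lay between -0.03 and 0.01. On day 0, 1 of the 75 was higher and 1 lower in satellite than in endothelial cells, with a median of -0.06.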
